A study of Mus musculus with 9 samples.

Results

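Notch1, Jag2, Ephb4 and Efna3 are 4 genes of signalling by direct cell contact: a Notch receptor, a Notch ligand, an Eph receptor and an ephrin. Their promoter accessibility was compared between blood progenitor cells that carried Snai1 and cells that carried an empty vector. In the authors' deposited table each gene had a single promoter window, so the 4 windows stood among 10271, and the 4 genes among 10192 genes with a window. A window was given the RefSeq gene whose 5′ end lay within 1000 bp of the window's start site on the same strand, otherwise the gene spanning it. The genes were picked with their change in this comparison known, so their values are a description and carry no test.

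The cells were HPC7, mouse blood progenitors kept as an established line with stem cell factor. Open chromatin was measured by ATAC-seq, which uses the Tn5 transposase to insert adapters into accessible DNA, and it was run on 3 libraries with the empty retroviral vector MIG-EV (EV), 3 with MIG-Snai1, which drives FLAG-tagged wildtype Snai1, and 3 with the mutant MIG-mut5Snai1. Snai1 is a zinc finger repressor known from epithelial-mesenchymal transition. All groups are the same line after retroviral transduction, and it is not stated that a group's libraries were transduced independently. The authors' p-values then reflect the variation among libraries, possibly technical. Values of the mutant are not analysed here.

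The deposited table gave 1 value per group and window, the log2 concentration, which is the log2 of the mean normalized reads in the window. It held no value per library, no read totals and no measure of the Snai1 transgene, so the depth of each library is unknown and no SD can be attached. A change below is the log2 concentration in Snai1 minus that in EV. Its precision is given as an implied SE, that is, the change over the normal deviate that corresponds to the authors' p. Of 12 genes that mark hematopoietic progenitors, 11 had a window and Erg had none. Of the 11, 4 were higher in Snai1, 2 lower and 5 did not pass. That is 36.4% higher and 18.2% lower, against 19.6% and 10.3% of all genes with a window. The changes were 0.41 for Tal1, 0.26 for Meis1, 0.25 for Gata2, 0.22 for Lyl1, -0.61 for Runx1 and -0.39 for Cd34, all called in the authors' deposited table. The start site of the Tal1 window lay 1385 bp inside the gene and that of the Gata2 window 4773 bp inside. With the median change of the 20 nearest windows subtracted and the FDR taken again, Tal1 alone of the 11 was called (0.295, re-tested FDR 0.00401), and Runx1 had a value of 0.055 (re-tested FDR 0.833). Kit had log2 concentrations of 11.57 in EV and 11.49 in Snai1 (FDR 0.349). The part of these shifts in the values of the 4 genes was not tested. None of 8 T cell markers had a window. Of 6 endothelial markers Pecam1 and Esam had one, with Pecam1 at 8.96 in EV and 9.46 in Snai1 and Esam at 6.43 and 6.39 in the authors' deposited table. Pecam1 was called higher (change 0.50, FDR 0.000114), also with the median of its neighbours subtracted (0.495, re-tested FDR 0.000242). Esam did not pass (-0.04, FDR 0.91), at 43.1 normalized reads per kb in EV against 1144 for the median window. Of 6 epithelial markers only Ocln had one, at 8.99 in EV and 4.18 in Snai1 (change -4.81, FDR 2.19e-95). The cells were measured in bulk, so fewer cells with an open promoter and a less open promoter in every cell cannot be told apart.

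Notch receptors are transmembrane proteins that are cut when a ligand of the Delta or Jagged family on a neighbouring cell binds them. The freed intracellular part joins the DNA-binding protein Rbpj in the nucleus and turns on genes such as those of the Hes and Hey families, a route best known in blood for T cell fate and for the first stem cells of the embryo. Eph receptors are tyrosine kinases whose ligands, the ephrins, also sit on cell membranes. A-type ephrins are held by a lipid anchor and B-type ephrins cross the membrane, and contact sets off repulsion or adhesion in both cells.

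The 4 promoters are shown because the accessibility values below were read over them. Each run holds 300 bases from RefSeq (GRCm38.p6, the coordinates of mm10), 250 before the annotated start site and 50 from it onward, 5′ to 3′ on the gene's strand. The single capital marks the start base and a run of capitals marks a match to the Rbpj motif. Notch1 is at chr2:26503773-26504072 on the minus strand, Jag2 at chr12:112929446-112929745 on the minus strand, Ephb4 at chr5:137349859-137350158 on the plus strand and Efna3 at chr3:89322890-89323189 on the minus strand.
Notch1: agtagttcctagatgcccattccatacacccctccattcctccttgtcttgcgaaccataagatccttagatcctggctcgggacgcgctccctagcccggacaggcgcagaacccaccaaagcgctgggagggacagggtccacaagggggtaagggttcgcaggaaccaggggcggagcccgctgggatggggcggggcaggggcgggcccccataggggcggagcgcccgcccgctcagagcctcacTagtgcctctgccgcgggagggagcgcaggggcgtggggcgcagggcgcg
Jag2: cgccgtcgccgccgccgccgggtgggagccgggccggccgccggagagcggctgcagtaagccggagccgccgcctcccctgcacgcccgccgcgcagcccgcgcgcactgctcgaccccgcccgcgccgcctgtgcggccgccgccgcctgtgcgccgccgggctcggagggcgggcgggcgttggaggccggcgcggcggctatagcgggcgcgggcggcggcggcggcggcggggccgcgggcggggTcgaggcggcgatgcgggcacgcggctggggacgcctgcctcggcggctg
Ephb4: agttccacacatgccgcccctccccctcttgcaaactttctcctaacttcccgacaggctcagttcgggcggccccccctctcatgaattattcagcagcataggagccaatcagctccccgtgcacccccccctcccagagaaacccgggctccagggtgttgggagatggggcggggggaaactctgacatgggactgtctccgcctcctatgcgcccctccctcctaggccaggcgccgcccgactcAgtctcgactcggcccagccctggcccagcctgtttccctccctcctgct
Efna3: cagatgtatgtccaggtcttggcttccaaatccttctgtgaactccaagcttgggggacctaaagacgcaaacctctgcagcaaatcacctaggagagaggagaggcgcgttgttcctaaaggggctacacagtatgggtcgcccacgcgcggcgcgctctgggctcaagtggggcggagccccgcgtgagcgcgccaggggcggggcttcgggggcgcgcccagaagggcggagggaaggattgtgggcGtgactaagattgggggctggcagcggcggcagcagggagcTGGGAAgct

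All 4 were rich in G and C. The G and C share was 68.3% for Notch1, 86.0% for Jag2, 64.7% for Ephb4 and 64.0% for Efna3, against a median of 61.3% over the 6641 windows of the table whose start site is a RefSeq start. Jag2 held 63 CpG dinucleotides, Notch1 23, Efna3 22 and Ephb4 14, against a median of 22. A pair of short motifs was searched on both strands. The E-box bound by Snai1, CAGGTG or on the other strand CACCTG, was found in 0 of the 4 promoters. It was found in 15.9% of the promoters of those 6641 windows and in 20.2% of all 32817 RefSeq promoters of this length. The Rbpj motif TGGGAA or on the other strand TTCCCA was found in Efna3 alone, 41 to 46 bp after the start base. It was found in 22.6% of the promoters of the 6641 windows and in 25.6% of all promoters. Only these 300 bases were searched, a part of each window.

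Notch1, the receptor, had the largest change of the 4. Its window (chr2:26503722-26504822, minus strand, with its start site exactly at the 5′ end of the gene) ran from 1000 bp before the start to 100 bp after it. The log2 concentration in the authors' deposited table was 8.38 in EV and 5.71 in Snai1. On the linear scale this is 333 normalized reads in EV and 52.3 in Snai1, so that 15.7% of the EV level was left. The change was -2.67 (implied SE 0.20), a 6.36-fold lower level, and ranked 29th from the lowest of the 10271 windows. The window was weakly open already in EV, at percentile 8.20 of windows of its width, and at percentile 0.717 in Snai1.

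Jag2 encodes a Jagged ligand that activates Notch receptors on adjoining cells. Its window (chr12:112929395-112930495, minus strand) was placed on a RefSeq start site that lies 317 bp inside the outermost 5′ end of the gene. The log2 concentration in the authors' deposited table was 8.71 in EV and 7.22 in Snai1, or 419 and 149 normalized reads. The change was -1.49 (implied SE 0.16), a 2.81-fold lower level that left 35.6% of the EV value. This window too was in the lower part of its width class, at percentile 10.2 in EV and percentile 4.29 in Snai1.

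Ephb4 is the Eph receptor of veins and of early blood and endothelial progenitors, and its main ligand is ephrin-B2. Its window (chr5:137349109-137351109, plus strand, on the 5′ end of the gene) reached 1000 bp to either side of the start. It was the most accessible of the 4, with a log2 concentration of 10.88 in EV and 9.22 in Snai1 in the authors' deposited table, or 1885 and 596 normalized reads. The change was -1.66 (implied SE 0.10), a 3.16-fold lower level. Ephb4 moved from percentile 46.3 of windows of its width in EV to percentile 10.9 in Snai1, so it alone of the 4 started near the middle of the table.

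Efna3 encodes ephrin-A3, a lipid-anchored ligand of EphA receptors. Its window (chr3:89322779-89323879, minus strand) had its start site 60 bp inside the 5′ end of the gene. The log2 concentration in the authors' deposited table was 7.60 in EV and 6.10 in Snai1, or 194 and 68.6 normalized reads, the lowest EV level of the 4. The change was -1.50 (implied SE 0.20), a 2.83-fold lower level. Efna3 lay at percentile 4.97 of its width class in EV and at percentile 1.26 in Snai1.

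Window widths differ, 2001 bp for Ephb4 and 1101 bp for the others, so levels of different genes were compared per kb. In EV the order was Ephb4 with 942 normalized reads per kb, Jag2 with 380.4, Notch1 with 303 and Efna3 with 176, all below the median window of 1144 normalized reads per kb. In Snai1 the order was Ephb4 with 298, Jag2 with 135, Efna3 with 62.3 and Notch1 with 47.5 normalized reads per kb, so Notch1 and Efna3 changed places. No spread over libraries is given, so neighbours in these orders cannot be set against one. For the changes, Jag2, Efna3 and Ephb4 lay within 0.17 of each other, less than the combined implied SE of 0.19 for Jag2 and Ephb4. The difference between the changes of Notch1 and Ephb4, the next in order, was -1.01 with a combined implied SE of 0.23.

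**Figure D1:**
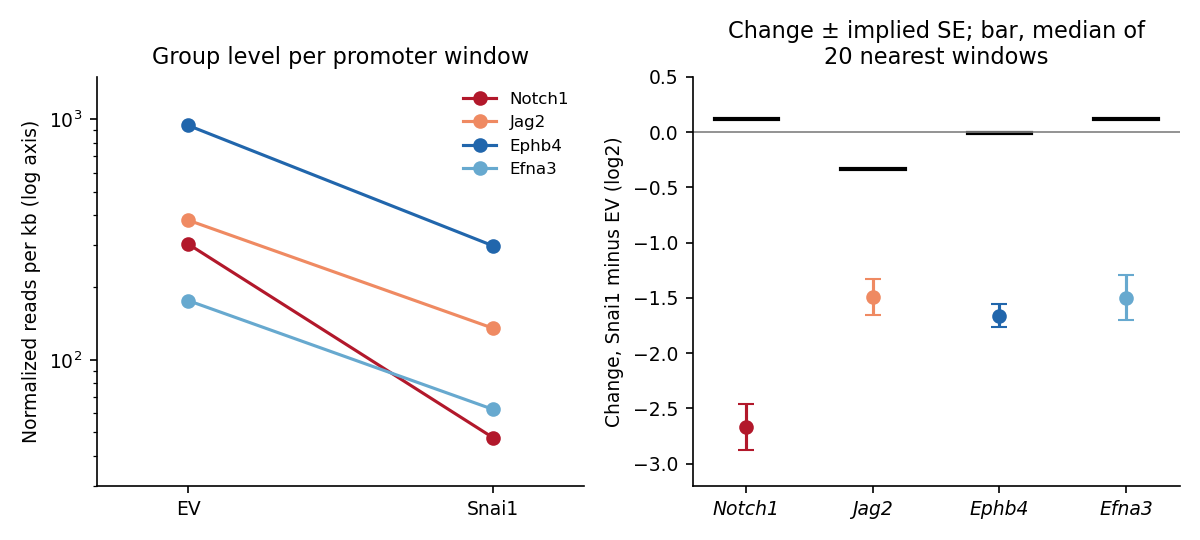
Left, group level of each gene's promoter window in EV and Snai1, in normalized reads per kb on a log axis; right, log2 change with its implied SE as bars and, as a black line, the median change of the 20 nearest windows. All 4 lines go down, from 942 to 298 for Ephb4 and from 303 to 47.5 for Notch1, and the black line lies clearly below 0 for Jag2 only, at -0.33.

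All 4 windows had an authors' FDR under 0.05 with a lower value in Snai1. Over all windows 10.3% were called lower and 19.6% higher, and nothing is read from the count of members since they were chosen on these values. The 4 were also called lower at FDR 0.01 (7.74% of all windows lower, 11.2% higher), with the median change of all windows subtracted (13.8% lower, 7.21% higher) and with the median of the 20 nearest windows subtracted (8.35% lower, 5.41% higher). Windows of the same width whose log2 concentration in EV lay within 0.5 of the gene's were counted as like windows. For Notch1, 17.1% of 292 like windows were lower and 12.7% higher. For Jag2 it was 16.7% lower and 15.4% higher of 384, and for Efna3 15.7% lower and 17.4% higher of 178. For Ephb4 it was 5.65% lower and 26.3% higher of 2160. Of those like windows, 5 had a change at or below that of Notch1, 17 at or below that of Jag2, 9 at or below that of Efna3 and 1 at or below that of Ephb4. Nothing is read from these 4 counts either, since the genes were chosen with their changes known.

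**Figure D2:**
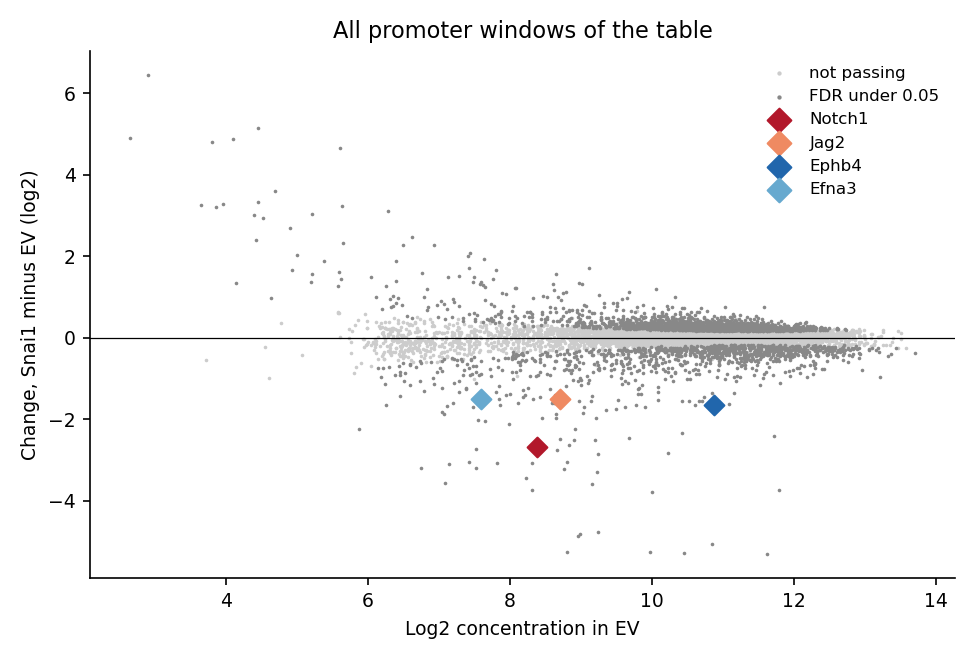
Each point is 1 of 10271 promoter windows, with its log2 concentration in EV on the horizontal axis and its log2 change in Snai1 on the vertical axis; darker points have an authors' FDR under 0.05 and diamonds are the 4 genes. Notch1, Jag2 and Efna3 lie in the sparse left part, between 7.60 and 8.71, while Ephb4 at 10.88 lies below the dense cloud.

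The windows around each gene are given as a description of its surroundings. The genes were chosen with their changes known, so whether a change was confined to its gene was not tested. Of the 10 windows nearest to Notch1, 5 on each side, 2 were higher, 2 lower and 6 did not pass. Their median change was 0.09. The lower ones were Agpat2 (-0.25, FDR 0.0235 in the authors' deposited table), a lipid acyltransferase gene, and Dipk1b (-1.18, FDR 3.74e-16). The higher ones were Snapc4 (0.26, FDR 0.0166) and Egfl7 (0.87, FDR 1.18e-06), the first window upstream of Notch1. Egfl7 encodes a secreted protein of endothelium that binds Notch receptors. The Egfl7 window had a log2 concentration of 7.22 in EV against 8.09 in Snai1 in the authors' deposited table, 82.8 kb from the Notch1 start. Its start site lies 5547 bp inside Egfl7 and 4727 bp before the hairpin of the microRNA Mir126a, which the window does not reach.

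Jag2 lay in surroundings that were lower as a whole. Of its 10 nearest windows 8 were lower, 1 did not pass and 1 was higher, with a median of -0.37. The median of the 20 nearest was -0.33, and 15 of those were lower. These 20 spanned 3.69 Mb and reached as far as 3351.7 kb from Jag2, against spans of 0.55 to 0.89 Mb for the other genes. Nudt14, the next window at 12.6 kb, changed by -0.31 (FDR 0.00806 in the authors' deposited table), and Brf1, a subunit of the RNA polymerase III initiation factor, by -0.48 (FDR 2.47e-08). Crip1, a LIM domain gene 222.5 kb away, rose by 1.32 (FDR 4.47e-34). Set against the median of its 20 neighbours, the change of Jag2 was -1.16 in place of -1.49. The part of the regional shift in the value of Jag2 was not tested.

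Ephb4 and Efna3 stood in surroundings that hardly moved. Of the 10 windows nearest to Ephb4, 9 did not pass and Gnb2, a G protein beta subunit gene, was lower (-0.38, FDR 0.000172 in the authors' deposited table). The erythroid and iron-sensing gene Tfr2, 220.7 kb away, had a value of -0.20 (FDR 0.731). The median of the 20 nearest windows was -0.005. Of the 10 windows nearest to Efna3, 9 did not pass and Cks1b, a cell cycle kinase subunit gene, was higher (0.21, FDR 0.00962). Efna3 sits in a cluster with other A-type ephrin genes. Efna4, the next window at 15.1 kb, had a log2 concentration of 9.67 in EV and 9.79 in Snai1 in the authors' deposited table (change 0.12, implied SE 0.10, FDR 0.381). Efna1 had no window. The protease gene Adam15, 27.1 kb from Efna3, had a change of -0.01 (FDR 0.945).

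**Figure D3:**
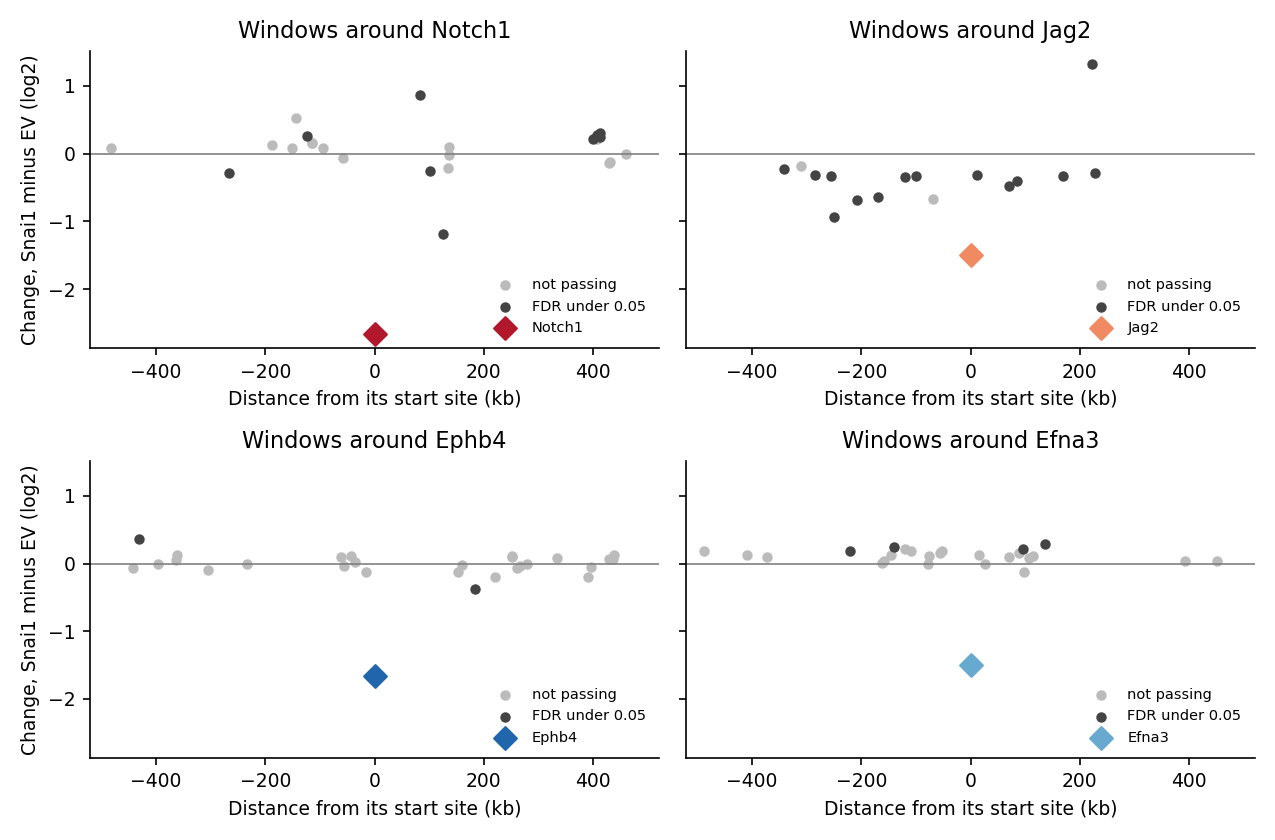
Log2 change of every promoter window within 500 kb of each gene's start site, by distance in kb; the diamond is the gene itself, dark points passed FDR 0.05 and pale points did not. The windows around Jag2 lie mostly below 0, those around Ephb4 and Efna3 lie near 0, and around Notch1 they go to either side, from -1.18 at Dipk1b to 0.87 at Egfl7.

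The rest of the Notch pathway was examined by role, on lists of 63 other genes, of which 44 had a window. Of these 44, 6 were higher in the authors' deposited table, 8 lower and 30 did not pass. That is 13.6% higher and 18.2% lower, against 19.6% and 10.3% of all genes with a window, and the median change was 0.03 against 0.08 over all genes. Set against the median of each window's 20 neighbours and adjusted over all windows again (re-tested FDR), 3 were higher and 5 lower, or 6.82% and 11.4%, against 5.42% and 8.36% of all genes.

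Among the other receptors Notch2 had a value of -0.16 (implied SE 0.08, with FDR 0.126 in the authors' deposited table) and Notch4 of 0.03 (FDR 0.903), and Notch3 had no window. Notch2 did pass once centred on its neighbours, at -0.31 (re-tested FDR 0.00262). Of 7 other ligand genes only Dll1, a Delta ligand, had a window, and it was lower. Its log2 concentration in the authors' deposited table was 9.56 in EV and 8.95 in Snai1 (change -0.61, implied SE 0.10, FDR 1.34e-07), at a window 1109 bp inside the gene. No window was assigned to Jag1, Dll3 or Dll4.

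Of 15 genes for glycosylation and cleavage of the receptor, 14 had a window, 2 were higher, 3 lower and 9 did not pass. The secretase genes were split. Aph1b, a scaffold subunit, rose by 0.24 (with FDR 0.0255 in the authors' deposited table). The Aph1b window was assigned as spanned by the gene, 1922 bp in from the 5′ end. Aph1b lost its call after centring, both on its neighbours (0.17, re-tested FDR 0.206) and on the median of all windows (re-tested FDR 0.197). Psen2, a catalytic subunit, changed by -0.38 (FDR 3.41e-05) at a window 7167 bp inside the gene, and the substrate-binding subunit Ncstn by -0.25 (FDR 0.00125). Poglut1, which adds glucose to the receptor, changed by -0.35 (FDR 0.00105). None of these 3 lower calls held when the median of the 20 neighbours was subtracted: the values were -0.14 for Psen2 (re-tested FDR 0.272), 0.005 for Ncstn (re-tested FDR 0.981) and 0.265 for Poglut1 (re-tested FDR 0.0305, now higher). In the authors' deposited table the protease genes Adam10 (0.03, FDR 0.792) and Adam17 (0.15, FDR 0.219) and the fringe gene Lfng (0.06, FDR 0.586) did not pass.

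Regulators of endocytosis and ubiquitination had a window in 11 of 14 cases, and 9 did not pass. Itch, a ubiquitin ligase that acts on Notch, rose by 0.24 (with FDR 0.0259 in the authors' deposited table), but was not called once centred on its neighbours (0.16, re-tested FDR 0.243) or on the median of all windows (0.16, re-tested FDR 0.198). Dtx3l, a Deltex family ligase, changed by -0.18 (FDR 0.0339), and by 0.14 once centred on its neighbours (re-tested FDR 0.176). Mib1, which the ligands need to signal, had a value of 0.12 (FDR 0.19). In the nuclear complex and its corepressors 9 of 11 did not pass. Rbpj had a value of 0.07 (FDR 0.498) at a window 34707 bp inside the gene, and the coactivator gene Ep300 of 0.10 (FDR 0.334). The demethylase gene Kdm5a rose by 0.32 (FDR 0.000109).

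Of 10 target genes 5 had a window, of which 2 were higher, 2 lower and 1 did not pass. Hes1, a repressor and the classical Notch target, changed by -0.58 (FDR 5.04e-06 in the authors' deposited table) and its relative Hey1 by -0.32 (FDR 0.0169). Hes5 rose by 0.28 (FDR 0.0311) and Myc, a target in T cell progenitors, by 0.37 (FDR 1.40e-06). Nrarp, a feedback inhibitor of Notch, had a value of 0.09 (FDR 0.42). Centred on its neighbours, Hes1 had a value of -0.14 (re-tested FDR 0.485), Hes5 of 0.245 (re-tested FDR 0.108), Hey1 of -0.42 (re-tested FDR 0.00222) and Myc of 0.205 (re-tested FDR 0.0256).

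Of 50 other Eph, ephrin and effector genes, 31 had a window. Of these 31, 3 were higher in the authors' deposited table, 5 lower and 23 did not pass, or 9.68% higher and 16.1% lower, with a median change of 0.04, against 19.6% and 10.3% and a median of 0.08 over all genes with a window. Centred on the neighbours, 1 was higher and 3 were lower, or 3.23% and 9.68%, against 5.42% and 8.36% of all genes. Most Eph receptor genes had no window: 3 of 13 did. Ephb6, a receptor without kinase activity, was higher, with a log2 concentration of 10.87 in EV against 11.40 in Snai1 in the authors' deposited table (change 0.53, implied SE 0.11, FDR 8.28e-06), at a window 1648 bp inside the gene. Ephb2 had a value of -0.03 (FDR 0.856) and Epha1 of -0.22 (FDR 0.31).

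Of 7 other ephrin genes 4 had a window, and Efna2 alone was called, lower by a change of -0.31 (FDR 0.0359 in the authors' deposited table). Efnb2, the gene of the main Ephb4 ligand, had a log2 concentration of 10.94 in EV and 11.02 in Snai1 in the authors' deposited table (change 0.08, FDR 0.543). Efnb1 had a value of 0.09 (FDR 0.477). Among 24 effector genes with a window 2 were higher, 4 lower and 18 did not pass. The kinase genes Src (-0.59, FDR 0.00653) and Abl2 (-0.43, FDR 3.53e-09) and the adaptor genes Itsn1 (-0.45, FDR 1.18e-06) and Crkl (-0.21, FDR 0.0122) were lower in the authors' deposited table. Sdcbp, which encodes the ephrin-B adaptor syntenin, rose by 0.56 (FDR 2.25e-13), and Vav3, an exchange factor gene, by 0.19 (FDR 0.0227). Centred on the neighbours, Src (-0.69, re-tested FDR 0.00224) and Abl2 (-0.24, re-tested FDR 0.00452) were still called, whereas Itsn1 (0.09, re-tested FDR 0.559), Crkl (0.08, re-tested FDR 0.522), Sdcbp (0.025, re-tested FDR 0.889) and Vav3 (0.025, re-tested FDR 0.882) were not. In the authors' deposited table the GTPase genes Rhoa (0.08, FDR 0.409), Rac1 (-0.13, FDR 0.291) and Cdc42 (0.10, FDR 0.368) did not pass.

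**Figure D4:**
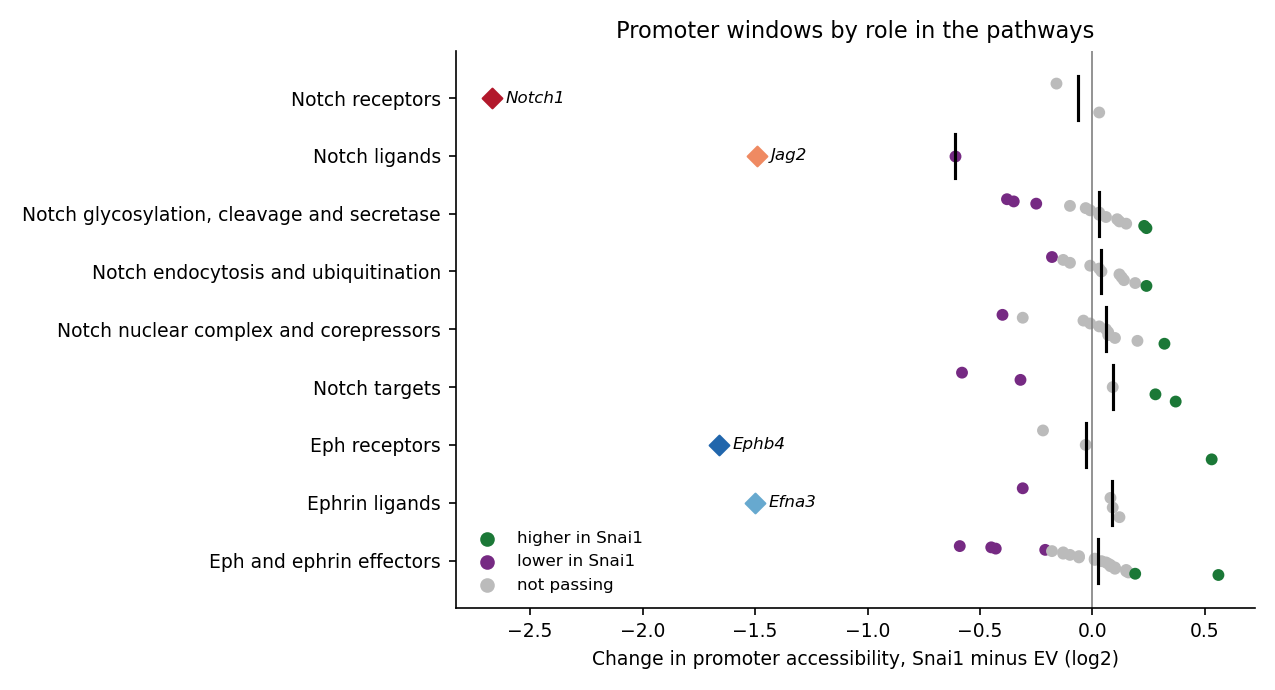
Log2 change of each gene with a window, grouped by role; green and purple points passed FDR 0.05 as higher and lower in Snai1, grey points did not, the black line is the median of the other genes of the list and diamonds are the 4 genes. The other genes lie between -0.61 (Dll1) and 0.56 (Sdcbp), and the 4 diamonds between -2.67 and -1.49. Nothing is read from this gap, since the 4 genes were chosen with their changes known.

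Windows with a pattern most like that of each gene were found by distance in the plane of both log2 concentrations, over 2 group values only. The distances use whole windows, not levels per kb, so windows of unequal width are mixed: Fam217b and Fzd4 are wider than the Notch1 window, and Lyplal1 and Lgmn narrower than that of Ephb4. Nearest to Notch1 were Fam217b (distance 0.108 log2), the Frizzled receptor gene Fzd4 (0.352) and the potassium channel gene Kcnk12 (0.416). Nearest to Jag2 were Ndufa13 (0.081), the chromatin organizer gene Satb1 (0.125) and the zinc finger gene Sall2 (0.166). Nearest to Ephb4 were Lyplal1 (0.162), Fam181b (0.193) and the protease gene Lgmn (0.237). Nearest to Efna3 were Phactr2 (0.214), the endocytic receptor gene Lrp1 (0.224) and Sh3bp5 (0.282).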

How the data were processed

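Per the labels, HPC7 cells gave 3 ATAC-seq libraries in each of 3 groups. The submitters' processing notes name the tools fastp, Bowtie2, Picard and DiffBind and the genome mm10. Their versions, a Tn5 offset of the reads, how reads were assigned to windows and how libraries were scaled are not given in the sources used. The authors' deposited table compares EV with Snai1 and gives log2 concentrations (their log2 fold is EV minus Snai1, within 0.01 of the difference of the group values) and, per the file headers, a p-value and an FDR. The concentration over both groups lay within 0.02 of the log2 of the mean of both group values for 100.0% of windows. Columns of values per sample numbered 0, so no count model, paired fit or test across libraries was run.

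Of 10274 rows, 3 exact repeats were dropped. Windows of 2001 bp run 1000 bp to either side of a plus-strand start; those of 1101 bp run from 1000 bp before to 100 bp after a minus-strand start. RefSeq genes of GRCm38.p6 were assigned by 5′ end (8957 windows) or as the spanning gene (1283), and 31 windows had none; strands came from the RefSeq promoter table where it holds the gene. For lists, a gene's window with the highest concentration was used. Alternatives centred the changes on the median over the table (0.08) or over the 20 nearest windows, 10 on each side, took the ratio to the implied SE as a normal deviate, and applied a Benjamini-Hochberg adjustment over all windows. Windows changed by less than 0.1, or with a p of 0, took the median implied SE of their accessibility bin (20 bins). This retest was tested on simulated data, where the share of false calls lay above the threshold, more so with a shift common to all windows.

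The 4 genes and all lists were chosen with earlier results of these data known. The rule for named genes took all windows of the 4 genes, their 5 nearest windows on each side, from each list up to 4 called genes by smallest FDR (or, where no gene was called, the 1 of smallest p) and the 3 most alike windows; other genes named were chosen after their values were seen, as was the comparison with windows of like accessibility. Some genes that the rule names are counted in the lists but not reported here. Python 3.11.15, pandas 2.3.3, scipy 1.17.1 and matplotlib 3.10.9 were used.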

Additional observations from a re-analysis of the deposited data

How the results depend on the processing

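All 4 genes were also called lower with the median of all windows subtracted, with that of the 20 nearest windows subtracted and at FDR 0.01, which says nothing of stability, since they were chosen on changes far larger than these shifts. The pathway counts did depend on these choices, and so did the shares over all windows. As deposited, 19.6% of all windows were higher and 10.3% lower, and with the median of all windows subtracted 7.21% and 13.8%. With that of the 20 nearest they were 5.41% and 8.35%, and at FDR 0.01 they were 11.2% and 7.74%. For a 5′ end within 100 bp no such share was taken. Of the Notch genes, 6 were higher and 8 lower; with the median of all windows subtracted 2 were higher and 9 lower, with that of the 20 nearest 3 were higher and 5 lower, at FDR 0.01 3 were higher and 6 lower, and with a 5′ end within 100 bp 3 were higher and 6 lower among the 28 genes left. Of the Eph and ephrin genes, 3 were higher and 5 lower; with the median of all windows subtracted 2 were higher and 5 lower, centred on the 20 nearest windows 1 was higher and 3 lower, at FDR 0.01 2 were higher and 3 lower, and with a 5′ end within 100 bp 1 was higher and 3 lower among the 18 left, where fewer genes are counted. The cause was not tested elsewhere. Every list gene with a window had 1 window only, so choosing a gene's window by the smallest p could not change a count. Centred on the 20 nearest windows, 4 of 20 named list genes changed sign: Poglut1 to 0.265, Ncstn to 0.005, Dtx3l to 0.14 and Itsn1 to 0.09. Of the other 16, 9 kept their direction and their side of the threshold, 6 lost the call and Notch2 gained it. Over all windows, 3075 were called as deposited, 2157 with the median of all windows subtracted (34.4% of them higher, against 65.5%) and 1414 with that of the 20 nearest (39.3% higher). No paired analysis was possible because values per library are not part of the table, and leaving out a replicate could not be run for the same reason. The depth of the libraries is unknown; the median implied SE was 0.083 over all windows and 0.164 among windows like Efna3, so small changes were harder to call at weakly open promoters.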

Other observations

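The Snai1 E-box CAGGTG was counted, on both strands, in the 300 bases around the start of the 6641 windows whose start site is a RefSeq start. It was present in 15.9% of all of them, in 18.9% of the 704 windows called lower in the authors' deposited table, in 14.5% of the 1284 called higher and in 15.9% of the 4653 that did not pass. The Rbpj motif TGGGAA was present in 22.6% of all, 21.6% of the lower, 23.6% of the higher and 22.5% of the others. These shares are values without a test.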
